A study of Mus musculus with 10 samples.

Results

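The Cdk6 locus was examined in array comparative genomic hybridisation of 10 mouse leukemias, through the 955 probes that lie in a window of 260 kb beginning at position 3300000 of chromosome 5 (build mm9), of 402404 probes in all. The members were chosen by position alone. The selection places Cdk6 at about 3.341 to 3.531 Mb, a span that held 710 of the 955 probes, with 149 before it and 96 after it. All 10 leukemias carried BCR-ABL1, the fusion kinase of Philadelphia chromosome-positive leukemia. Of these, 5 were Ikzf1+/- and 5 were Ikzf1+/+, where Ikzf1 encodes Ikaros, a transcription factor of lymphocyte development. The DNA of each tumour, from GFP-positive leukemic bone marrow cells, carried Cy5, and stage-matched non-leukemic bone marrow DNA, named as that of B220-positive B cells in the design text, carried Cy3 on the same array. Dyes were not swapped on any array, and every ratio therefore still holds whatever dye effect the arrays have in common. Whether each tumour arose in its own mouse was not stated in the labels. The p-values therefore cover only the scatter among these 10 DNA samples, which may in part be technical.

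Cdk6 is a kinase that binds D-type cyclins and, like its close relative Cdk4, phosphorylates the retinoblastoma protein Rb at the passage from G1 into S phase. The inhibitors encoded by Cdkn2a, Cdkn2b, Cdkn2c and Cdkn2d bind it directly. It is the more prominent of both kinases in haematopoietic cells, and in mouse BCR-ABL1 lymphoid leukemia it is also known as a regulator of transcription. In the gene table at hand, of the later build GRCm38, the non-coding RNA gene Gm36470 overlaps Cdk6, the non-coding RNA gene Gm29868 lies inside it, and Fam133b is the next protein-coding gene after it. The arrays measured DNA, so they give the copy number of this interval and not the expression of Cdk6.

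All values are log2 ratios of tumour over non-leukemic DNA, centred so that the autosomal median of each array is 0. A single extra copy in every cell, 3 copies against 2, would give +0.58. The window was tiled far more densely than the genome, with a median of 226 bases between probe starts against 5343 bases on the autosomes. All 955 probes had a value on every array, and on all 10 arrays 931 of them exceeded background clearly, without saturation, in either dye. The median background-subtracted Cy5 signal was 199 to 225 on the Ikzf1+/- arrays and 88.4 to 159 on the Ikzf1+/+ arrays. In Cy3 it was 146 to 165 on the Ikzf1+/- arrays and 164 to 179 on the Ikzf1+/+ arrays. The probe noise was 0.171 to 0.194 on the Ikzf1+/- arrays and 0.184 to 0.222 on the Ikzf1+/+ arrays, as an SD of the log2 ratio estimated from neighbouring probes.

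The level of the locus was first set against the chromosome that carries it. The median of the rest of chromosome 5, over 22009 probes, lay between -0.0063 and +0.020 in the 5 Ikzf1+/- tumours. In Ikzf1+/+ tumours 3 and 5 it was raised, to +0.47 and +0.22, and in Ikzf1+/+ tumours 1, 2 and 4 it lay between -0.00066 and +0.0022. Averaged over all its probes, the Cdk6 window lay at -0.079, -0.13, -0.072, -0.097 and -0.13 in Ikzf1+/- tumours 1 to 5. In Ikzf1+/+ tumours 1 to 5 it lay at -0.090, -0.15, +0.22, -0.081 and -0.019. Ikzf1+/+ tumour 3 was thus the only tumour with a window mean above 0, and the window of tumour 5 was not raised above 0 although its chromosome was.

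The window therefore lay below its own chromosome in all 10 tumours. The window mean minus the median of the rest of chromosome 5 was -0.077, -0.13, -0.069, -0.091 and -0.15 for Ikzf1+/- tumours 1 to 5. The corresponding values for Ikzf1+/+ tumours 1 to 5 were -0.092, -0.15, -0.25, -0.081 and -0.24. Over all arrays this averaged -0.13 ± 0.065 (SD, n = 10), and a two-sided exact sign-flip permutation test against 0 gave p = 0.00195, the smallest that 10 arrays allow. Neighbouring DNA was shifted in the same direction, by less over the first Mb after the window, at -0.058 ± 0.028 (SD, n = 10), and by more over the part of the chromosome before it, at -0.18 ± 0.095 (SD, n = 10). Normexp background correction was run on raw median signals, without the dye normalisation of the processed signals. The shift of the window was then -0.090 and missed the threshold (exact permutation p = 0.0762). It then averaged +0.039 in the Ikzf1+/- tumours, with a range of -1.3e-05 to +0.071. In the Ikzf1+/+ tumours it averaged -0.22, with a range of -0.26 to -0.17. With that correction the window thus did not lie below its chromosome in all 10 tumours.

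The deficit was not spread evenly over the locus. Cut into 13 bins of 20 kb, with 60 to 82 probes each, the window held 8 bins that were lower than the rest of the chromosome over all arrays (limma, Benjamini-Hochberg adjusted p under 0.05 over 64560 autosomal bins), and 0 that were higher. All 13 bin means lay below 0. An unadjusted limma p under 0.05 was reached by 12 of the 13, and by 15582 of the 64560 autosomal bins in either direction. Of all autosomal bins 2.86% were called lower, 3.19% higher and 6.05% in either direction. The bins of the genome held a median of 3 probes, so the bins of this window rest on many more probes than most others do. The 3 bins between 100 and 160 kb from the start of the window were the lowest, at -0.27, -0.27 and -0.29 (limma adjusted p = 0.00421, 0.00414 and 0.00303), and each lay below 0 in 10 of 10 tumours. They were not a dip in every tumour. In Ikzf1+/+ tumour 1 they lay at -0.055, -0.018 and -0.017, above the bins on either side, at -0.13 and -0.10. Next lowest over all arrays were the 3 bins of the first 60 kb, at -0.14, -0.16 and -0.17 (limma adjusted p = 0.00620, 0.00529 and 0.0107). Of the other 7 bins, those at 60 and 180 kb were called, at -0.089 and -0.092 (limma adjusted p = 0.0333 and 0.0335). The highest bins were those at 240 kb, -0.044 (limma adjusted p = 0.270), and at 160 kb, -0.061 (limma adjusted p = 0.119). With values centred on the autosomal median alone, without the level of the chromosome taken off, 3 of 13 bins were called, against 2804 of 64560 over the autosomes.

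The lowest part had sharp ends. Each array was segmented on its own by penalised change points, and 8 of 10 arrays gave a separate segment there, namely all 5 Ikzf1+/- tumours and Ikzf1+/+ tumours 2, 3 and 5. Its start lay between 3399838 and 3401290 and its end between 3459379 and 3461405, a spread over arrays of 1.45 and 2.03 kb. Ikzf1+/+ tumours 1 and 4 had no change point inside the window. Simulated dips of 180 probes at -0.2, with independent noise of the size found in Ikzf1+/+ tumour 1, were recovered with both ends in 75% of cases. This rate does not bear on Ikzf1+/+ tumours 1 and 4, where this part did not lie that far below the rest of Cdk6, as given below. The part shared by the 8 segments, 58.1 kb from 3401290 to 3459379 with 179 probes, lies inside the Cdk6 span and is called the low stretch here. The 14 probes at its edges, where the arrays placed the ends differently, count neither to the stretch nor to the 762 window probes outside it. It was chosen from these ratios, so its levels are a description and carry no test.

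The low stretch lay at -0.22, -0.24, -0.20, -0.29 and -0.31 in Ikzf1+/- tumours 1 to 5. In Ikzf1+/+ tumours 1 to 5 it lay at -0.026, -0.28, -0.12, -0.096 and -0.34. The ranges of the genotypes overlap, and Ikzf1+/+ tumours 1 and 4 were the highest of the 10. In Ikzf1+/+ tumour 1 the stretch lay above the rest of the Cdk6 span, at -0.10, and in Ikzf1+/+ tumour 4 it lay near it, at -0.077. Set against the rest of chromosome 5, the stretch lay deepest in the tumours with a raised chromosome, at -0.59 in Ikzf1+/+ tumour 3 and -0.56 in Ikzf1+/+ tumour 5, whereas the other tumours lay between -0.33 and -0.028. In Ikzf1+/+ tumour 3, 178 of its 179 probes were below the median of the chromosome, and in Ikzf1+/+ tumour 5 all 179 were. The extra DNA that the rest of chromosome 5 showed in these tumours was thus not seen at the low stretch.

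The remainder of Cdk6 was raised in the same tumours as the chromosome. The Cdk6 span without the stretch, 517 probes, lay at -0.037, -0.11, -0.035, -0.045 and -0.083 in Ikzf1+/- tumours 1 to 5. In Ikzf1+/+ tumours 1 to 5 it lay at -0.10, -0.12, +0.32, -0.077 and +0.076. After the stretch, where 379 probes cover the second part of Cdk6 and the DNA beyond it, Ikzf1+/+ tumour 3 lay at +0.35 and Ikzf1+/+ tumour 5 at +0.12, against a range of -0.098 to -0.0041 in the other 8 tumours. The same held between 60 kb and the stretch, with +0.36 and +0.11 in Ikzf1+/+ tumours 3 and 5 and -0.15 to -0.018 in the others. Both tumours with a raised chromosome 5 therefore also carried raised ratios over most of Cdk6, and in these 2 parts their values minus the rest of the chromosome lay between -0.12 and -0.10.

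The first 60 kb behaved between these extremes. There the mean over 222 probes, which lie mostly before Cdk6 and include its start, was +0.16 in Ikzf1+/+ tumour 3 and -0.090 in Ikzf1+/+ tumour 5, and relative to their chromosome this was -0.30 and -0.31. The other 8 tumours lay between -0.16 and -0.077. The segmentation divided this part in both tumours. In Ikzf1+/+ tumour 3 a segment from 3296249 to 3310481 averaged +0.36 over 54 probes, and the next, from 3310530 to 3359431, averaged +0.12 over 180 probes. In Ikzf1+/+ tumour 5 the segment from 3336445 to 3354174 averaged -0.23 over 69 probes, between segments at -0.025 and +0.11. In Ikzf1+/- tumours 1, 3, 4 and 5 a change point between 3353681 and 3356688 ended a segment that began at 3008399, before the window, with means of -0.18 to -0.11.

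No called gain at Cdk6 exceeded the level of its chromosome. With a call set at 0.3 in either direction over at least 5 probes, gains overlapped the window in 1 tumour, Ikzf1+/+ tumour 3, in 3 segments at +0.36, +0.37 and +0.35 that all lay below the level of its chromosome. Losses were called in 2 tumours, both at the low stretch, at -0.31 in Ikzf1+/- tumour 5 and at -0.34 in Ikzf1+/+ tumour 5, just past the threshold. The segments of the stretch in Ikzf1+/- tumours 1 to 4 lay at -0.22, -0.24, -0.20 and -0.29, and those in Ikzf1+/+ tumours 2 and 3 at -0.28 and -0.12, all short of it. Of autosomal 20 kb bins, 6.82% were overlapped by a called gain and 0.265% by a called loss on at least 1 array. Of the 13 bins of the window, 11 were overlapped by a called gain and 3 by a called loss. These segments were not read in copies on the scale where 1 extra copy gives +0.58, which bright probes need not follow. Relative to the rest of chromosome 5, the segments of the stretch in Ikzf1+/+ tumours 3 and 5 lay at -0.58 and -0.56. Bright probes fell short of the raised level of chromosome 5, as given below, and the copy number of the stretch was not determined. The number of tumours with a loss was 6 with calls at 0.2 and 0 with calls at 0.5.

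The genotypes were compared over the whole window and within it. The window level averaged -0.10 ± 0.028 for Ikzf1+/- tumours and -0.024 ± 0.14 for Ikzf1+/+ tumours (mean and SD over 5 arrays). The difference, -0.078 ± 0.065 (SE), was not larger than the scatter of the tumours by an exact permutation test (two-sided, p = 0.325). The difference was -0.017 without Ikzf1+/+ tumour 3 (exact permutation p = 0.611). With normexp-corrected signals its direction turned, to +0.093, with a mean and SD of +0.044 ± 0.028 for the 5 Ikzf1+/- arrays and -0.049 ± 0.27 for the 5 Ikzf1+/+ arrays (exact permutation p = 0.556). On the only slide that held both genotypes, Ikzf1+/- tumour 1 minus Ikzf1+/+ tumour 5 gave -0.061. Relative to the rest of chromosome 5, the window lay at -0.10 ± 0.035 and -0.16 ± 0.078 (Ikzf1+/- and Ikzf1+/+, SD, n = 5 each), a difference of +0.058 ± 0.038 (SE, exact permutation p = 0.159), and of +0.16 on that slide. Ikzf1+/+ tumours 3 and 5, with the raised chromosome, lay lowest, at -0.25 and -0.24. Ikzf1+/+ tumours 1, 2 and 4, at -0.092, -0.15 and -0.081, lay within the Ikzf1+/- range. Bright probes fell short of the raised level, as given below, so this subtraction does not take out a gain evenly. Starting from normexp-corrected signals, the same difference was +0.26, with +0.039 ± 0.033 in Ikzf1+/- and -0.22 ± 0.041 in Ikzf1+/+ tumours (exact permutation p = 0.00794, the smallest 5 against 5 arrays allow). The Ikzf1+/+ arrays were those with the dimmer Cy5 signal, and the normexp-corrected signals were not dye-normalised. The part of either in the result was not tested. Without the low stretch, the difference relative to the rest of chromosome 5 was +0.059, with -0.068 ± 0.034 in Ikzf1+/- and -0.13 ± 0.039 in Ikzf1+/+ tumours (n = 5 each, exact permutation p = 0.0476). This last setting was chosen after the data were seen.

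Within the window, limma called 0 of 13 bins of 20 kb as different between Ikzf1+/- and Ikzf1+/+ (adjusted p under 0.05), and 0 of 13 had an unadjusted p under 0.05. Over the autosomes 0.0666% of bins were called, 0.0124% as higher and 0.0542% as lower in Ikzf1+/- tumours, and 7030 of 64560 had an unadjusted p under 0.05. The bin differences, Ikzf1+/- minus Ikzf1+/+, ran from +0.035 at 40 kb to +0.083 at 220 kb, with the smallest limma adjusted p = 0.514. Of 190 runs of 5 consecutive probes inside the window, limma likewise called 0, and 35 had an unadjusted p under 0.05, against 0.43% called (0.128% higher and 0.302% lower) and 9421 of 76491 with such a p on the autosomes. After normexp correction 5 of 13 bins and 109 of 190 runs were called, all higher in Ikzf1+/- tumours. Over the autosomes normexp called 818 of 64560 bins (584 higher, 234 lower) and 4262 of 76491 runs (3419 higher, 843 lower). Simulated genotype differences of 0.3 and 0.5, with independent noise, were recovered in 53% and 87% of autosomal 20 kb bins. Those bins were drawn from all autosomes, where a bin held a median of 3 probes. The percentages therefore do not give the sensitivity in the window, whose bins held 60 to 82 probes.

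The probes of the low stretch were also the brightest of the locus, in both dyes. On the Ikzf1+/- arrays their median processed Cy3 signal was 1033 to 1120, against 226 to 256 over the rest of the window, and on the Ikzf1+/+ arrays it was 672 to 982, against 168 to 225. The stretch was thus brighter than the rest of the window by 4.39 ± 0.111 times in Cy3 on the Ikzf1+/- arrays and by 4.28 ± 0.188 times on the Ikzf1+/+ arrays (SD, n = 5 each). In Cy5, the tumour channel, the factors were 3.69 ± 0.123 and 3.64 ± 0.572 (SD, n = 5 each), the lowest single factors being those of Ikzf1+/+ tumours 3 and 5. The Cy3 channel holds non-leukemic DNA, so the stretch was bright in non-leukemic DNA as well. Averaged over arrays, the stretch had a median Cy3 signal of 952 and the autosomes one of 168. A signal of at least 603, the lower quartile of the stretch, was reached by 1.08% of autosomal probes and by 59 of the 762 window probes outside the stretch.

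Brightness and ratio moved together outside the window as well. In Ikzf1+/+ tumour 3 the probes of the rest of the chromosome had a median ratio of +0.48 where their Cy3 signal was under 200 (16345 probes), +0.45 at 200 to 300 (4686 probes), +0.27 at 300 to 600 (711 probes) and +0.042 at 600 and above (267 probes). In Ikzf1+/+ tumour 5 the same classes gave +0.23, +0.20, +0.065 and -0.15. Window probes outside the stretch followed this order, with +0.40, +0.32, +0.16 and +0.071 in Ikzf1+/+ tumour 3 and +0.13, +0.046, -0.031 and -0.12 in Ikzf1+/+ tumour 5. On autosomes other than 5 and 19 the 4 classes lay between -0.018 and +0.016 in Ikzf1+/+ tumour 3 and between -0.025 and -0.0032 in Ikzf1+/+ tumour 5. Chromosome 19 was kept apart because its level was raised as well, in Ikzf1+/- tumour 5 and Ikzf1+/+ tumour 5. There the 4 classes lay at +0.22, +0.16, +0.078 and +0.010 in Ikzf1+/- tumour 5 and at +0.24, +0.19, +0.14 and +0.079 in Ikzf1+/+ tumour 5. Bright probes thus fell short of the raised level on both chromosomes and lay near 0 on the remaining autosomes. In the class of 600 and above, which has no upper limit, the probes of the stretch lay at -0.18 (136 probes) in Ikzf1+/+ tumour 3 and -0.38 in Ikzf1+/+ tumour 5, and the 59 probes of that class within 1 Mb of the window lay at -0.050 and -0.30. Beyond 100 kb after the window, chromosome 5 held 11 runs of 5 probes whose median Cy3 signal reached the lower quartile of the stretch. Relative to the chromosome, the 35 runs of the stretch had medians of -0.60 and -0.57 in Ikzf1+/+ tumours 3 and 5, and the 11 bright runs elsewhere had medians of -0.39 and -0.41. The ranges overlap, since 5 and 6 of the 11 runs lay at or below -0.4, with lowest values of -0.73 and -0.81. The few stretch probes with a signal of 200 to 300, 12 in number, lay at +0.080 and -0.27 in these tumours. What part brightness has in the low ratios of the stretch was not tested, and whether its probes match other places of the genome was not determined here.

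In tumours without a raised chromosome 5 the brightest class of its remaining probes also lay low, at -0.15, -0.13, -0.12, -0.18 and -0.17 in Ikzf1+/- tumours 1 to 5 and at -0.12 in Ikzf1+/+ tumour 2. It lay at +0.0089 and -0.031 in Ikzf1+/+ tumours 1 and 4, the arrays in which the low stretch was not separate either. Over the 955 probes of the window the correlation between log2 Cy3 signal and ratio was -0.64 in Ikzf1+/+ tumour 3, -0.50 in Ikzf1+/+ tumour 5, -0.38 to -0.19 in the Ikzf1+/- tumours, -0.12 in Ikzf1+/+ tumour 2, and +0.11 and +0.093 in Ikzf1+/+ tumours 1 and 4. These are correlations across probes of the same array, which share the labelled DNA and the dyes, and probes are not independent replicates. The Cy3 signal is also the denominator of the ratio, so scatter in Cy3 alone can push such a correlation below 0.

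The second bright part of the window, between 40 and 60 kb, had a median Cy3 signal of 402 and contains the start of the Cdk6 span. Its level minus the rest of chromosome 5 was -0.39 and -0.35 in Ikzf1+/+ tumours 3 and 5, -0.22 to -0.11 in the Ikzf1+/- tumours and -0.024, -0.15 and -0.038 in Ikzf1+/+ tumours 1, 2 and 4. The promoter of Cdk6 is printed to show the kind of sequence at the gene's start, from RefSeq and build GRCm38.p6, chr5:3343643-3343892 on the plus strand, as the 250 bases before the annotated start with each CG pair in capitals. These are coordinates of another build than those of the probes and were not converted.
Cdk6 promoter: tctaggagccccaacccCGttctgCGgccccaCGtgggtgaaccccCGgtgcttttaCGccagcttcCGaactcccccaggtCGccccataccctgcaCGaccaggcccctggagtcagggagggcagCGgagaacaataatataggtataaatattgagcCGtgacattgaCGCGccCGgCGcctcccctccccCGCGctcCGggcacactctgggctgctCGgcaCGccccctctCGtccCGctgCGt
It holds 22 CG pairs and 66% G and C, against medians of 6 pairs and 52.4% over 32851 promoters of the same length in the table, of which 92.1% hold at least 1 CG pair on either strand and 14.8% at least as many as Cdk6.

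The lowest single probes of the window lay in the low stretch and the highest outside it. The lowest by mean over all arrays were A_67_P13170185 at 3437675 with -0.41 ± 0.34, A_67_P13170123 at 3429168 with -0.39 ± 0.23 and A_67_P13170329 at 3457215 with -0.39 ± 0.23 (SD, n = 10), all in the low stretch and each below 0 in 9 of 10 tumours. The highest was A_67_P01028810 at 3507918, +0.75 ± 1.35 (SD, n = 10), which was not well above background on every array and reached +4.51 on 1 of them. The next were A_67_P13169850 at 3393667, +0.40 ± 0.47, and A_67_P13170806 at 3536928, +0.35 ± 0.15 (SD, n = 10). A_67_P13170806 lay above 0 in every tumour, was well above background on all arrays and had a Cy3 signal of 677, against a median of 220 over the window outside the stretch. Of the 955 probes, 83 lay below 0 in all 10 tumours, 63 of them in the low stretch, and 5 lay above 0 in all. The share of such probes over the whole array was not determined. Since the stretch was chosen from these same ratios, the place of the low probes within it is a description only.

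Bins of 20 kb with at least 5 probes were ranked by how closely they followed the Cdk6 span over the 10 arrays, as a description. By level, the 5 most similar of 674 bins on chromosome 5 started at 92740001, 138220001, 109080001, 90900001 and 3560001 with Pearson correlations of 0.97 to 0.98, against a median of 0.84 over the chromosome, all points sharing the gains of Ikzf1+/+ tumours 3 and 5. On other autosomes the highest of 10701 bins was at 76900001 on chromosome 14 with 0.90, within ratios of -0.018 to +0.046, followed by bins on chromosomes 6, 11, 2 and 14. After the level of the own chromosome was taken off, the nearest bins on chromosome 5 started at 3280001 (0.98), 3260001 (0.94), 109880001 (0.91), 110000001 (0.90) and 3000001 (0.89), against a chromosome median of -0.035. On other autosomes they started at 110980001 on chromosome 7 (0.93), 37000001 on chromosome 17, 55740001 on chromosome 8, 41980001 on chromosome 11 and 134500001 on chromosome 7. The low stretch alone was followed most closely on chromosome 5 by bins at 3260001 (0.99), 3000001 (0.99), 110060001 (0.97), 109960001 (0.96) and 109940001 (0.95). Among 894 other autosomal bins of at least 40 probes, 1 lay at or below the highest of the 3 bins of the stretch in its mean over all arrays.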

How the data were processed

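Array comparative genomic hybridisation had been run on 10 arrays, 1 per tumour, on 5 slides, with groups and replicate numbers taken from the labels. Slides 1 and 2 held only Ikzf1+/+ arrays and slides 4 and 5 only Ikzf1+/- arrays. Slide 3 held Ikzf1+/+ tumour 5 and Ikzf1+/- tumour 1. Slide and genotype can therefore hardly be told apart. Agilent Feature Extraction is given as version 10.5.1.1 by the submitters' processing notes, whereas per the file headers the version was 10.7.3.1, the build mm9 and the protocol a CGH protocol whose name states lowess. The deposited Cy5 and Cy3 intensity of each spot is the scanner software's processed signal, background-subtracted and dye-normalised, and the deposited scanner log10 ratio was used to read the series matrix. The deposited matrix holds log2 ratios of Cy5 over Cy3 (slope 1.00 on the scanner's ratio after conversion, on every array), not centred, with medians of -0.019 to -0.00060.

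From the processed signals, log2 of Cy5 over Cy3 was taken without spots that the scanner software marked as outliers. Repeated spots were averaged per probe, and the autosomal median of an array was subtracted from all its values. For bins and runs the median of the own chromosome was subtracted, on chromosome 5 without the Cdk6 window. Bins of 20 kb needed 3 probes. The sequence of tests was limma 3.58.1 under R 4.3.3 over all autosomal bins or runs (Benjamini-Hochberg, 0.05) and exact permutation tests for single values (numpy 2.4.6, pandas 2.3.3, Python 3.11.15). Change points were sought per array by penalised least squares (numba 0.67.0), with at least 3 probes per segment, a penalty per change point of 2 noise variances multiplied by the log of the autosomal probe number, and single values clipped at 4 noise SDs from the running median of 11 neighbours. Both procedures were tested on simulated data. The number of arrays limits the precision.

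The locus, the lists and the tests were chosen with earlier results of these data known. The named features followed a rule: bins past the threshold or highest and lowest, the 3 highest and 3 lowest probes, every segment ending in the window, and the 5 most similar features. The files do not pair probes with genes, and no mm9 gene annotation was used, so a planned comparison of a list of Cdk, cyclin D and Rb genes was not made and similarity was ranked over bins in place of genes. The scanner files gave median and not mean spot signals, so normexp (offset 50) was run on medians. No dye normalisation followed, apart from centring each array on its autosomal median. Same-numbered tumours of the genotypes did not deviate together (correlations of -0.028 to +0.021 over 64560 bins), so the numbers were not used as pairs in the main tests. These correlations cannot show whether same-numbered samples were paired in origin or handling.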

Additional observations from a re-analysis of the deposited data

Results flagged for a closer look

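Of 40 groups of 5 values checked for a value far from the rest, 1 stood out: the median of the rest of chromosome 5 was +0.020 in Ikzf1+/- tumour 5, whereas the other 4 Ikzf1+/- tumours lay between -0.0063 and -0.0021. Chance marks about 1 in 20 such groups. That value is the level against which the Cdk6 window of this tumour was set, and it moves the window's deviation there by the same small amount.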

How the results depend on the processing

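The normexp setting, which also left out dye normalisation, changed the most. It turned the genotype difference in window level to +0.093 (exact permutation p = 0.556), raised that relative to chromosome 5 to +0.26 (exact permutation p = 0.00794), took the window's deviation from 0 to -0.090 (exact permutation p = 0.0762), and gave 5 bins and 109 runs that differed between genotypes and 3 bins that differed from 0. Background correction and the missing dye normalisation cannot be told apart in this setting, and the cause was not tested. The series matrix values, outlier spots kept, and probes well above background kept every call and direction of the 3 window values. Relative to DNA within 1 Mb the window lay at -0.035 (exact permutation p = 0.00195). Ikzf1+/- and Ikzf1+/+ arrays alone gave -0.10 and -0.16 (exact permutation p = 0.0625 each, the smallest 5 arrays allow). Within the shared slide the genotype difference relative to chromosome 5 was +0.16, and without the low stretch, an alternative chosen after seeing the data, +0.059 (exact permutation p = 0.0476). Over all autosomes, bins that differed between genotypes numbered 43, against 818 with normexp, 0 with medians over probes and 110 with slide as a random block. Autosomal runs that differed between genotypes numbered 329, against 4262 with normexp. Bins differing from 0 numbered 3907, against 7459 with normexp and 1482 without Ikzf1+/+ tumour 5. In the window, bins differing from 0 numbered 3 when centred on the autosomal median, 5 of 5 with 50 kb bins, 12 of 13 when bins needed 5 probes, 9 with probes well above background and 6 with medians over probes. Over the autosomes these settings, in the same order, called 2804 of 64560, 5051 of 45637, 1285 of 11388, 4145 of 63591 and 1860 of 64560 bins. With medians over probes 1 run differed between genotypes, against 71 of 76491 over the autosomes. Tumours with a called gain numbered 0 at 0.5 and 0 relative to chromosome 5, and tumours with a called loss 6 at 0.2, 0 at 0.5, 3 relative to chromosome 5 and 3 with normexp. Leaving out each tumour in turn, the genotype difference in level ran from -0.11 to -0.017 (exact permutation p from 0.0556 to 0.611), that relative to chromosome 5 from +0.036 to +0.078 (exact permutation p from 0.0635 to 0.357), and the window's deviation from -0.14 to -0.12 (exact permutation p = 0.00391). Bins differing from 0 then numbered 6 to 8 in the window, against 1482 to 4875 over the autosomes. Runs differing between genotypes numbered 0 or 1 (1 without Ikzf1+/+ tumour 2, against 323 over the autosomes). Tumours with a gain numbered 0 without Ikzf1+/+ tumour 3 and otherwise 1, and tumours with a loss 1 or 2. Blocking on replicate number gave -0.078 (exact permutation p = 0.375) and +0.058 (exact permutation p = 0.125) and changed no call, with 0 bins and 0 runs called. Slide as a random block left 0 bins and 0 runs between genotypes and 8 bins against 0 (3531 over the autosomes). Such a block cannot separate slide from genotype, since only the shared slide held both genotypes. A comparison of the gene list was not run.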
